A study of Mus musculus with 9 samples.

Results

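The heat shock protein genes examined here were 10 mouse genes of cytosolic protein folding, Hspa1a, Hspa1b, Hspa8, Hsph1, Dnaja1, Dnajb1, Hsp90aa1, Hsp90ab1, Hspb1 and Bag3, followed through 9 lymphomas. They were taken by name, and all probe sets that the platform annotation assigned to 1 of these genes alone were used. A probe set is a group of short array probes directed at 1 transcript. Of the 10 genes, 9 had a probe set in the table, with 23 probe sets among 45037 on the array. Hsp90ab1, the constitutive Hsp90 gene, is named by no probe set in the annotation used, where 9160 probe sets have no gene listed and 932 have several. It was not analysed here, so Hspa8 alone stood for the constitutive class.

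Lymphomas of 2 genotypes were compared. Of these, 5 came from Eμ-Myc;Eμ-TTP-1 mice, called double-transgenic here, and 4 from Eμ-Myc mice that lacked the TTP transgene. All 9 carried Eμ-Myc, in which the immunoglobulin heavy chain enhancer Eμ drives the oncogene Myc in B cells, on a 94% C57BL/6 background. By its name the Eμ-TTP-1 transgene puts TTP (tristetraprolin, gene Zfp36), a protein that speeds the decay of mRNAs with AU-rich sequences, under the same enhancer. No treatment, age or sorting of cells was given in the labels, and no exposure to heat is described. Each lymphoma was measured on 1 Affymetrix MOE430 2.0 array. The labels call the samples biological replicates without naming the animals, so the p-values measure the spread between these samples.

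Values are log2 of the deposited GCRMA intensity, a probe set brightness corrected for background. The median intensity was 12.2 to 13.4 per array, and the correlation between arrays over all probe sets was 0.959 to 0.990. A gene was tested if its probe set with the highest mean exceeded a log2 value of 4 (an intensity of 16) on at least 4 of the 9 arrays, which left 10172 of 18193 genes. The B cell markers Cd79a (13.24 to 14.06) and Cd79b (14.37 to 15.30) were high in all 9 lymphomas, and 7 of 8 B cell markers were tested. In double-transgenic replicate 2 the B cell gene Cd22 was at 6.99 while the other lymphomas lay between 11.91 and 12.93, and the myeloid enzyme gene Mpo was at 10.78 where no other lymphoma exceeded 7.62. Between the genotypes Zfp36 differed by -0.020 and Myc by 0.10 (log2, double-transgenic minus Eμ-Myc, limma adjusted p = 0.995 and 0.942). As no sorting was named, the tissue was taken to be bulk tumour, in which fewer cells of a type and less RNA per cell cannot be told apart.

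Chaperones of the Hsp70 family bind exposed hydrophobic stretches of unfolded proteins in a cycle driven by ATP. Hsp40 proteins (Dnaja1, Dnajb1) deliver clients and start ATP hydrolysis, while nucleotide exchange factors (Hsph1 of the Hsp110 family, and Bag3) release ADP and client. Hsp90 takes over partly folded clients such as kinases and steroid receptors, and the small protein encoded by Hspb1 holds unfolded chains in a form that can be refolded. Some of these genes are constitutive and supply the unstressed cell (Hspa8, Hsp90ab1). Others have a basal level that heat raises (Hsp90aa1, Dnaja1, Hsph1), and a last group is known mainly as inducible through the heat shock factor HSF1 (Hspa1a, Hspa1b, Dnajb1, Hspb1, Bag3). This division is background and was not measured here.

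HSF1 binds heat shock elements, inverted repeats of a short unit, and the promoters were searched for the shortest such pairs, GAANNTTC and TTCNNGAA, each of which is its own reverse complement. The windows were RefSeq's for GRCm38.p6, 300 bases long, with 250 bases before and 50 from the annotated start on. Windows were used for 7 of the 10 genes, and 6 of these held at least 1 pair, in 7 of 11 windows. The exception was Dnajb1, with none in its windows. Either pair was found in 15.1% of all 32851 windows, GAANNTTC alone being in 7.86% and TTCNNGAA in 8.52%. A match is one of letters and says nothing of binding, and a window without one speaks only of those letters. The stretches around a match are printed 5′ to 3′ on the gene's strand, with the letters of 1 match in capitals, since they allow the element to be compared between members that are inducible and members with a basal level, and between the near-identical Hspa1a and Hspa1b.
Hspa1b, chr17:34959309-34959368, minus strand: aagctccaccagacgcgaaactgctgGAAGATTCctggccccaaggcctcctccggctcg
Hspa1a, chr17:34972227-34972286, minus strand: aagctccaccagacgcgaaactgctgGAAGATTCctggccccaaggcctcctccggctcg
Hspb1, chr5:135887776-135887835, plus strand: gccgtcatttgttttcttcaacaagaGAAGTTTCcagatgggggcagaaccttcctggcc
Dnaja1, chr4:40722318-40722377, plus strand: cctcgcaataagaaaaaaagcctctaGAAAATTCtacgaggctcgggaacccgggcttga
Hsph1, chr5:149636337-149636395, minus strand: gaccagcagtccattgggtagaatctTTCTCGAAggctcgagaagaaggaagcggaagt
Bag3, chr7:128523603-128523632, plus strand: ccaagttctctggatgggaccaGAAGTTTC

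Counting the annotated start as 1 and the base before it as -1, the match began at -104 in Hspa1a and in Hspa1b, at -117 in Hspb1, where a second match at -97 stands in lower case in the stretch shown, and at -124 in Dnaja1. The Hsph1 match shown began at -33, and 2 further, overlapping matches of the same window began at 37 and 42. In Bag3 the match, at 43, lay after the start. The stretches of Hspa1a and Hspa1b are the same, and their whole windows differed at 4 of 300 bases. The letters CCAAT or ATTGG, read by another class of factor, were in 37.4% of all windows, and in at least 1 window each of Hspa1a, Hspa1b, Hsph1, Dnaja1 and Dnajb1 but of neither Hspb1 nor Bag3.

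None of the heat shock protein genes differed significantly with genotype. Of the 8 members tested, 0 had a limma adjusted p under 0.05, and 0 of their 20 probe sets that passed the filter did. The background was the same: 0 of 10172 genes (0%) and 0 of 18464 probe sets (0%) passed, with 577 genes and 1107 probe sets at an unadjusted p under 0.05 and none of the member probe sets among them. Adjusted p-values of the members ran from 0.860 to 0.974. On the highest probe set of each, Hspa8, Dnaja1, Hsph1 and Dnajb1 had positive differences and Hsp90aa1, Hspa1b, Hspb1 and Bag3 negative ones. The sign of Hspa8 turned under median centring, and its other probe sets gave -0.071, -0.43 and -0.023. Of the 20 probe sets 7 had positive and 13 negative differences. The median of the 8 members was -0.017, beside 0.05 over all genes. The groups overlapped for every member, while they did not overlap for 167 of all genes tested (1.64%).

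**Figure D1:**
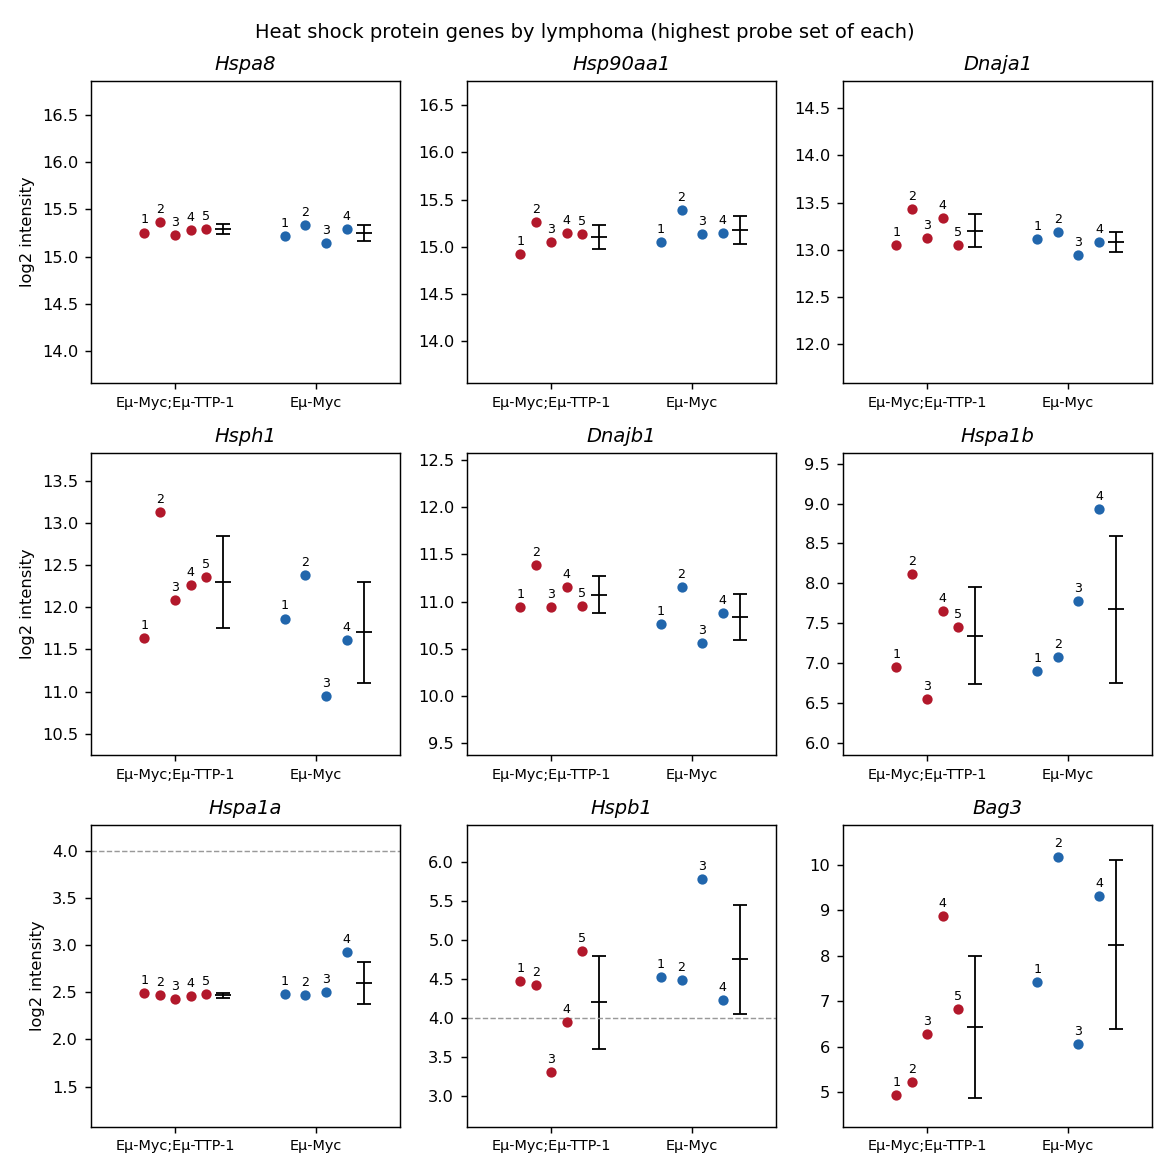
Log2 intensity of the highest probe set of 9 heat shock protein genes in each lymphoma, with replicate numbers beside the points. The bars are mean ± SD (n = 5 Eμ-Myc;Eμ-TTP-1, n = 4 Eμ-Myc), the dashed line marks the filter at 4 and scales differ between panels. Hspa8 stays between 15.15 and 15.37 while Bag3 runs from 4.94 to 10.18.

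Hspa8, which encodes the constitutive cognate Hsc70, varied little on its brightest probe sets. The highest, 1420623_x_at, read 15.26, 15.37, 15.23, 15.29 and 15.30 in the double-transgenic lymphomas, against 15.21, 15.34, 15.15 and 15.30 in the Eμ-Myc lymphomas. The groups lay on top of each other, and the span from lowest to highest was 0.22 on the log2 scale, or 1.17-fold. Between the genotypes it differed by 0.040 (log2, SE 0.10, 95% interval -0.18 to 0.26, limma adjusted p = 0.974), an interval of 0.884-fold to 1.19-fold. Its SD within genotype was 0.068, and 99.1% of all genes tested had a larger one. Genes of high intensity vary less on this scale. Among the 181 genes within 1 log2 unit of its level, whose median SD was 0.12, the share with a larger SD was 83.4%.

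The 4 Hspa8 probe sets did not move alike. Probe set 1420622_a_at read 15.27, 15.09, 15.16, 15.01 and 15.26 in the double-transgenic lymphomas, against 15.35, 15.15, 15.42 and 15.00 in the Eμ-Myc lymphomas. It was highest in Eμ-Myc replicate 3, where 1420623_x_at was lowest. Over the 9 arrays r between these probe sets was -0.709 (Spearman's rho -0.667, exact permutation p = 0.032, adjusted p = 0.064 over 18 pairs of probe sets of the same gene). It was -0.278 without the 2 arrays farthest from the median of 1420622_a_at. The third abundant probe set, 1455789_x_at, stayed between 15.08 and 15.22 throughout. Names ending in _x_at mark probes that can also match other transcripts. The SDs within genotype of these 3 probe sets were 0.068 for 1420623_x_at, 0.15 for 1420622_a_at and 0.046 for 1455789_x_at. The fourth, 1431182_at, was dimmer and far less even, with an SD of 1.02, at 8.97 in double-transgenic replicate 3 and 12.03 in double-transgenic replicate 5. The genotype test was passed by 0 of the 4 (limma adjusted p from 0.924 to 0.981).

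Hsp90aa1, the heat-inducible cytosolic Hsp90, had a small spread that was ordinary for its level, with an SD within genotype of 0.13 and a larger one in 46.1% of the 217 genes at a like level. Its probe set 1438902_a_at read 14.93, 15.26, 15.05, 15.15 and 15.13 in the double-transgenic lymphomas, against 15.05, 15.39, 15.13 and 15.14 in the Eμ-Myc lymphomas. Replicate 2 was the highest of each genotype, and the ranges overlapped in part, with double-transgenic replicate 1 below every Eμ-Myc value and Eμ-Myc replicate 2 above every double-transgenic one. Its log2 difference of -0.073 (SE 0.12, 95% interval -0.34 to 0.19) had a limma adjusted p of 0.954. Probe sets 1426645_at and 1437497_a_at gave differences of -0.11 and -0.10. Another 2 probe sets of the gene, 1433251_at and 1441827_x_at, never exceeded 2.92 and were not tested. Hsp90aa1 lies on chromosome 12, whose genes had a median 0.34 above their own 9-array medians in Eμ-Myc replicate 3; with each chromosome centred the difference of Hsp90aa1 was -0.00057 (SE 0.14).

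Dnaja1, an Hsp40 partner of Hsc70, spanned 0.49 log2 units, or 1.41-fold. Its probe set 1416288_at read 13.05, 13.43, 13.13, 13.34 and 13.05 in the double-transgenic lymphomas, against 13.11, 13.19, 12.94 and 13.08 in the Eμ-Myc lymphomas. Double-transgenic replicates 2 and 4 stood above every Eμ-Myc lymphoma, and the other 3 lay among them. The log2 difference was 0.12 (SE 0.12, 95% interval -0.16 to 0.40, limma adjusted p = 0.913). Probe set 1460179_at, which varied with it (r = 0.760 over the 9 arrays), differed by 0.28 (SE 0.15) and 1459835_s_at, which did not (r = -0.234), by -0.14 (SE 0.26).

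Hsph1, the Hsp110 nucleotide exchange factor that is also a holdase, was the abundant member that varied most. Its probe set 1425993_a_at read 11.63, 13.13, 12.09, 12.26 and 12.36 in the double-transgenic lymphomas, against 11.87, 12.38, 10.95 and 11.61 in the Eμ-Myc lymphomas. Double-transgenic replicate 2 was highest and Eμ-Myc replicate 3 lowest, 2.18 log2 units or 4.54-fold apart. Hsph1 differed by 0.59 on the log2 scale (SE 0.35, 95% interval -0.21 to 1.39, limma adjusted p = 0.860), an interval from 0.865-fold to 2.63-fold. The second probe set, 1423566_a_at, followed the first closely (r = 0.979) and differed by 0.62 (SE 0.33). Of the 2021 genes within 1 log2 unit of its level, 9.85% had a larger SD within genotype than the 0.57 of Hsph1.

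Dnajb1, an Hsp40 that heat induces strongly, was well above background in all 9 lymphomas. Its probe set 1416755_at read 10.94, 11.39, 10.94, 11.15 and 10.96 in the double-transgenic lymphomas, against 10.76, 11.15, 10.56 and 10.88 in the Eμ-Myc lymphomas. The order of the lymphomas resembled that of Hsph1, with double-transgenic replicate 2 highest and Eμ-Myc replicate 3 lowest, over a span of 0.82. The log2 difference was 0.24 (SE 0.16, 95% interval -0.12 to 0.59, limma adjusted p = 0.867), and that of 1416756_at was 0.10 (SE 0.11). Its SD within genotype, 0.22, was smaller than that of 70.7% of the 2891 genes at a like level.

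Hspa1b, which encodes the stress-inducible Hsp70, was far less even. Its probe set 1452318_a_at read 6.95, 8.11, 6.54, 7.65 and 7.45 in the double-transgenic lymphomas, against 6.90, 7.08, 7.77 and 8.94 in the Eμ-Myc lymphomas. Eμ-Myc replicate 4 was the highest and double-transgenic replicate 3 the lowest, 5.25-fold apart, and both genotypes held high and low lymphomas. The log2 difference was -0.33 (SE 0.47, 95% interval -1.39 to 0.73, limma adjusted p = 0.938), and without Eμ-Myc replicate 4 it was 0.093. The other 2 probe sets, 1427126_at and 1427127_x_at, rested nearer the filter but ordered the lymphomas much the same way (r from 0.885 to 0.964 between the 3). Hspa1a, its near-identical neighbour on chromosome 17, read 2.42 to 2.49 in the double-transgenic and 2.47 to 2.92 in the Eμ-Myc lymphomas on its 1 probe set, 1452388_at. That is under the filter on all 9 arrays, with the highest value again in Eμ-Myc replicate 4. Because the 2 genes are so alike, which of them the Hspa1b probe sets detected is uncertain. The genes of chromosome 17 had a median 0.33 above their own 9-array medians in double-transgenic replicate 5, and with each chromosome centred the Hspa1b difference was -0.43.

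Hspb1, encoding the small heat shock protein Hsp27 (Hsp25 in mouse), stayed close to background. Its probe set 1422943_a_at read 4.47, 4.43, 3.31, 3.94 and 4.85 in the double-transgenic lymphomas, against 4.52, 4.48, 5.78 and 4.23 in the Eμ-Myc lymphomas. The highest value was that of Eμ-Myc replicate 3, in which the highest probe sets of Hspa8, Dnaja1, Hsph1 and Dnajb1 were at their lowest. The log2 difference was -0.55 (SE 0.39, 95% interval -1.45 to 0.35, limma adjusted p = 0.872). The second probe set, 1425964_x_at, read 3.16 to 4.13 and differed by -0.23.

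Bag3, a nucleotide exchange factor and scaffold that routes clients to autophagy, varied most of all. Its only probe set, 1422452_at, read 4.94, 5.23, 6.27, 8.86 and 6.83 in the double-transgenic lymphomas, against 7.42, 10.18, 6.06 and 9.31 in the Eμ-Myc lymphomas. Double-transgenic replicates 1 and 2 were near background, Eμ-Myc replicates 2 and 4 and double-transgenic replicate 4 were high, and the span of 5.23 log2 units was 37.6-fold. The genotypes differed by -1.81 on the log2 scale (SE 1.02, 95% interval -4.14 to 0.52, limma adjusted p = 0.860), a ratio of 0.285 with an interval from 0.057 to 1.43. Leaving out each lymphoma in turn gave -2.54 to -1.17. Only 4.48% of all genes tested, and 9.41% of the 1849 genes at a like level, had a larger SD within genotype than its 1.69.

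**Figure D2:**
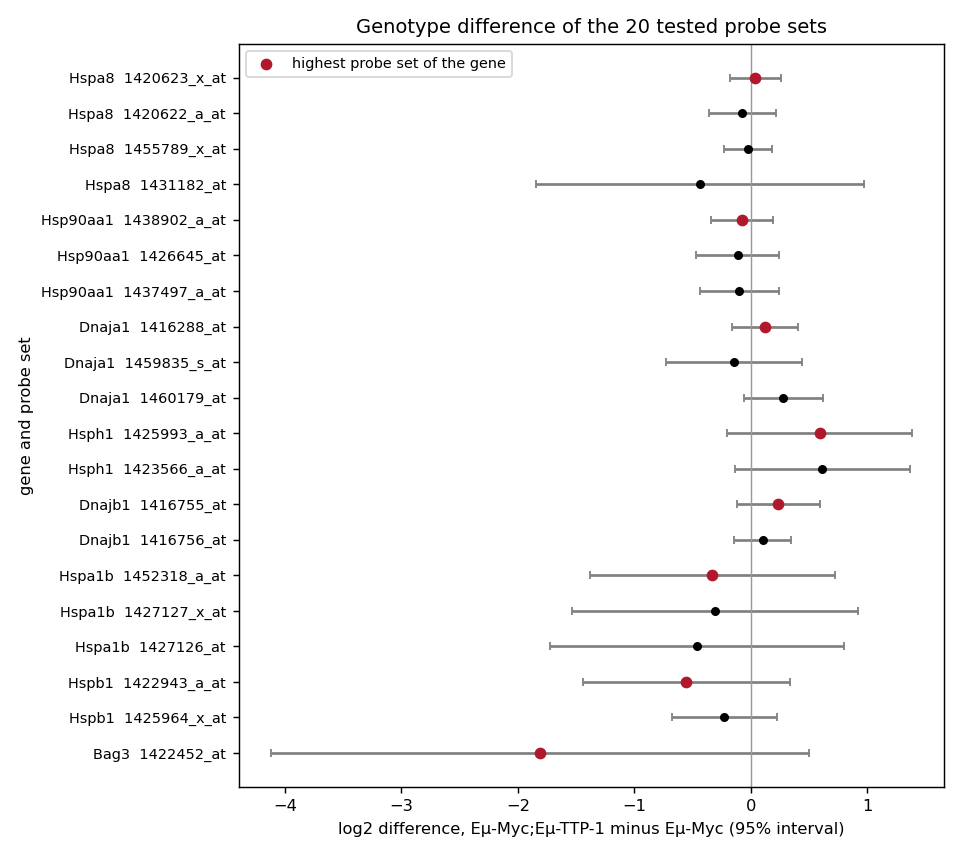
Log2 difference, Eμ-Myc;Eμ-TTP-1 minus Eμ-Myc, with its 95% interval from limma, of the 20 probe sets of heat shock protein genes that passed the filter; red points are the highest probe set of each gene. Every interval holds 0, and the widest is that of Bag3, from -4.12 to 0.50 in the fit over probe sets.

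Set side by side, SDs within genotype on the log2 scale were 0.068 for the constitutive Hspa8, 0.13, 0.15 and 0.57 for Hsp90aa1, Dnaja1 and Hsph1 with their basal levels, and 0.22, 0.64, 0.76 and 1.69 for the inducible Dnajb1, Hspb1, Hspa1b and Bag3. The median over all genes tested was 0.35. The inducible genes were also the dimmer ones, at which the spread of all genes was larger. Measured against genes within 1 log2 unit of the same level, the shares with a larger SD were 83.4% for Hspa8, 46.1% for Hsp90aa1, 79.1% for Dnaja1, 9.85% for Hsph1, 70.7% for Dnajb1, 34.3% for Hspa1b, 55.0% for Hspb1 and 9.41% for Bag3. By this measure the steadiest were the constitutive Hspa8, the basally expressed Dnaja1 and the inducible Dnajb1, and the most variable were Hsph1, which has a basal level, and the inducible Bag3. The order depends on the probe set: the SD was 0.15 for Hspa8 on 1420622_a_at and 1.02 on 1431182_at, 0.41 for Dnaja1 on 1459835_s_at, and 0.21 to 0.22 for Hsp90aa1 on its other 2 tested probe sets. These are descriptions with no test.

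The members were then compared with each other over the 9 lymphomas, with Pearson's r for 28 pairs of 8 genes and exact permutation of all 362880 orders. On the highest probe set of each gene, Hspa8, Dnaja1, Hsph1 and Dnajb1 varied together. The only pairs with an adjusted p under 0.05 were 5 of the 6 among them. Hsph1 and Dnajb1 had r = 0.917 (rho 0.887, exact permutation p = 0.002, adjusted p = 0.016). Hspa8 and Dnajb1 had r = 0.909 (rho 0.812, adjusted p = 0.016 by exact permutation), and Dnaja1 and Dnajb1 had r = 0.901 (rho 0.770, adjusted p = 0.016 by exact permutation). Hspa8 with Hsph1 and Dnaja1 with Hsph1 had r of 0.852 and 0.844 (rho 0.783 and 0.767, adjusted p = 0.027 and 0.026 by exact permutation). By rank, 0 of the 28 pairs passed (6 at an unadjusted p under 0.05, as by Pearson's r), with an adjusted p of 0.069 for Hsph1 and Dnajb1 and 0.120 for the other 4 pairs.

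The relation among these 4 genes rested on both ends of the series. On the highest probe set of each gene, double-transgenic replicate 2 was the highest and Eμ-Myc replicate 3 the lowest lymphoma. The Hsph1 probe set 1423566_a_at had the same ends. The Dnajb1 probe set 1416756_at was highest in Eμ-Myc replicate 2 (9.73) and lowest in Eμ-Myc replicate 1 (9.46). Of Dnaja1, 1459835_s_at was highest in Eμ-Myc replicate 1 (12.20) and 1460179_at lowest in Eμ-Myc replicate 4 (10.91). Without double-transgenic replicate 2, 0 pairs passed (5 at an unadjusted p under 0.05), and without Eμ-Myc replicate 3 likewise 0 (6 at an unadjusted p under 0.05). The r of the 5 pairs was then 0.708 to 0.870. In another alternative each pair lost the 2 arrays farthest from the median of its first gene, and 0 pairs passed (3 at an unadjusted p under 0.05). With Hspa8 or Hsph1 first, these arrays were double-transgenic replicate 2 and Eμ-Myc replicate 3. The r was then 0.453 for Hspa8 and Hsph1, 0.699 for Hspa8 and Dnajb1 and 0.659 for Hsph1 and Dnajb1. With Dnaja1 first, they were double-transgenic replicates 2 and 4, and Eμ-Myc replicate 3 was kept. The r of Dnaja1 was then 0.797 with Hsph1 and 0.810 with Dnajb1. On deviations from the genotype means r was 0.809 to 0.920 and 2 pairs passed, Hspa8 with Dnajb1 and Dnaja1 with Dnajb1 (adjusted p = 0.049 each, exact permutation within genotype). With probe sets named _x_at set aside, an alternative chosen after seeing the data, Hspa8 was represented by 1420622_a_at, and its r was -0.514 with Hsph1 and -0.684 with Dnajb1, so that only the 3 pairs without Hspa8 passed. On 1431182_at and 1455789_x_at the r of Hspa8 was -0.0025 and 0.239 with Dnajb1, and -0.044 and 0.436 with Hsph1. The relation of Hspa8 to Hsph1 and Dnajb1 thus held on 1 of its 4 probe sets, 1420623_x_at.

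**Figure D3:**
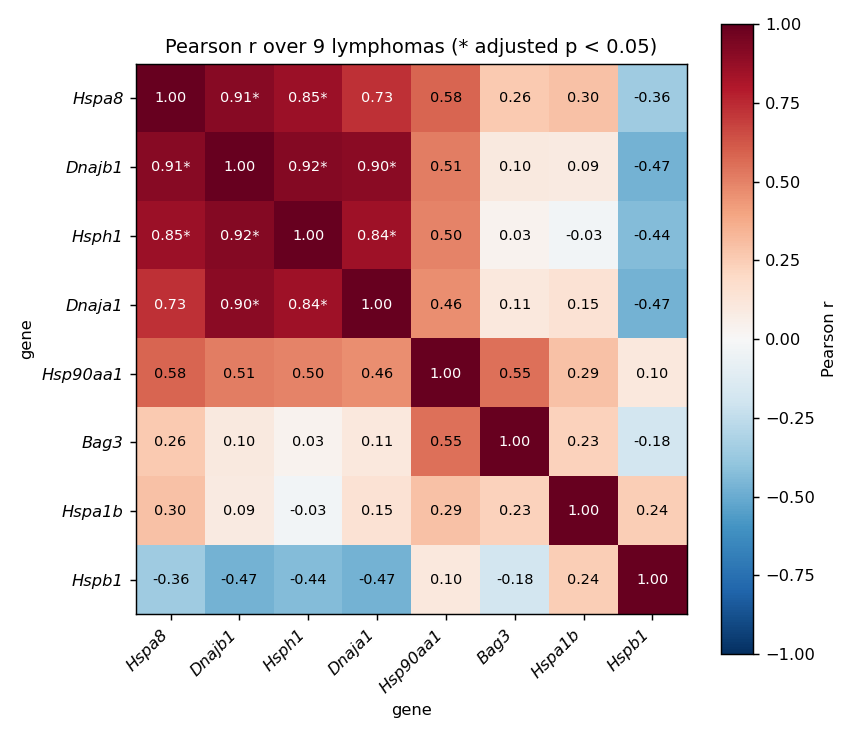
Pearson r between 8 heat shock protein genes over the 9 lymphomas, 1 probe set per gene; an asterisk marks a Benjamini-Hochberg adjusted exact permutation p under 0.05 over 28 pairs. Hspa8 (on 1420623_x_at), Dnajb1, Hsph1 and Dnaja1 form a block with r from 0.73 to 0.92, and Bag3, Hspa1b and Hspb1 stand outside it.

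The inducible Bag3, Hspa1b and Hspb1 stood outside this group. Hspa1b had r between -0.025 and 0.296 with the 4 genes, and Bag3 between 0.034 and 0.264. Hspb1 had negative r with all 4, from -0.472 to -0.356. On deviations from the genotype means r with the 4 genes was 0.401 to 0.524 for Bag3, 0.113 to 0.402 for Hspa1b and -0.356 to -0.256 for Hspb1. With 1 lymphoma left out the r of Hspb1 ran from -0.655 to 0.335 with Hspa8, and it stayed negative only with Dnaja1. Bag3 and Hspa1b had r = 0.233 with each other, and none of these pairs passed. By the highest probe set of each gene, double-transgenic replicate 2 held the highest Hspa8, Dnaja1, Hsph1 and Dnajb1 and the second highest Hspa1b of all 9, with Bag3 at 5.23. Hsp90aa1 lay between, with r of 0.464 to 0.582 with the 4 genes and 0.551 with Bag3. On deviations from the genotype means its r was 0.673 to 0.813 with the 4 genes and 0.487 with Bag3, and no such pair passed. When each chromosome was centred, the r of Hsp90aa1 with the 4 genes was 0.639 to 0.892. Of these only the pair with Hspa8 passed (r = 0.892, adjusted p = 0.023, exact permutation), beside 0.582 without centring. The r of that pair was 0.426 under quantile normalisation and -0.358 with _x_at probe sets set aside, and it passed in neither.

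**Figure D4:**
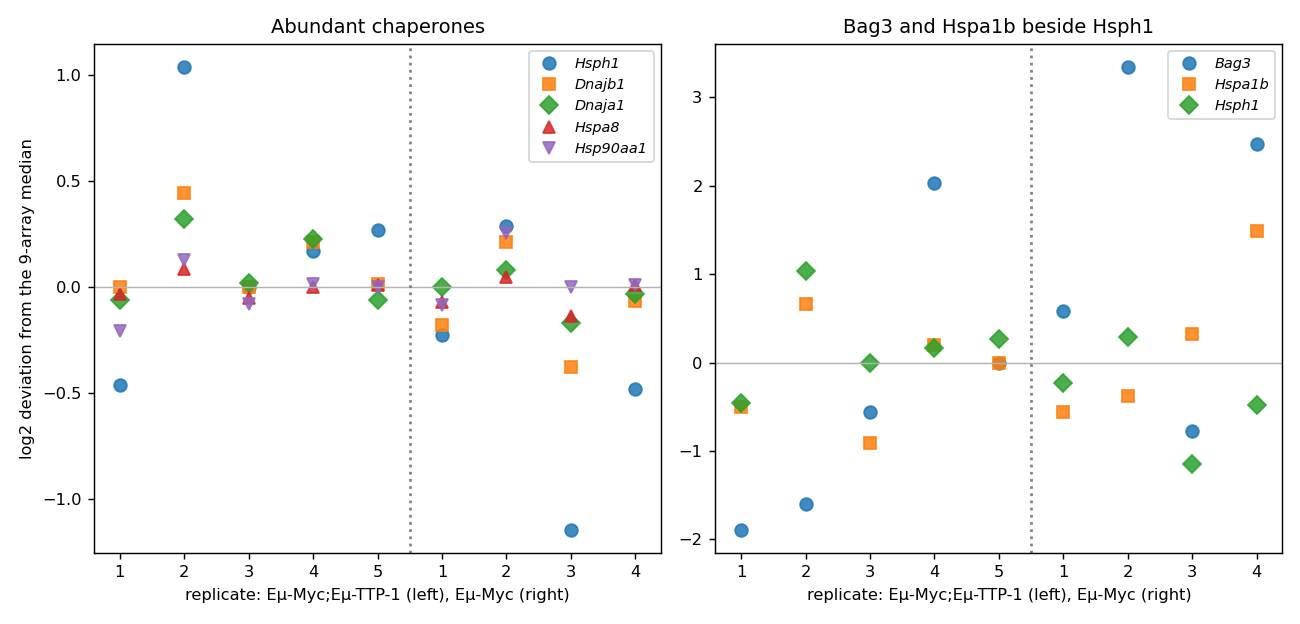
Log2 deviation of each gene, on its highest probe set, from its 9-array median, by lymphoma (5 Eμ-Myc;Eμ-TTP-1 left of the dotted line, 4 Eμ-Myc right of it). In the left panel 4 of the abundant chaperones are highest in double-transgenic replicate 2 and lowest in Eμ-Myc replicate 3, with Hsph1 moving most, while Hsp90aa1 is highest in Eμ-Myc replicate 2; in the right panel Bag3 and Hspa1b take other orders.

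The pattern of Dnajb1 was shared beyond the chaperones. Of all 10171 other genes tested 210 (2.06%) had r of 0.8 or more with Dnajb1, and 3 of the 7 other members, Hspa8, Dnaja1 and Hsph1, were among them. For Hspa8, taken here and below on 1420623_x_at alone, the count was 187 genes (1.84%) and 2 of 7 members, Dnajb1 and Hsph1. The non-members most like Dnajb1 over the 9 arrays were Ctr9 (r = 0.959), Ppp2r1b (0.946), Bcs1l (0.939), Agk (0.937), Dcaf4 (0.936), Depdc5 (0.933), Tfip11 (0.929) and Usp15 (0.928). Those most like Hspa8 were Usp15 (r = 0.951), Exoc3, Bcs1l, Alkbh7 and Pagr1a (0.950 each), Mrrf and Fam220a (0.937 each) and Mtmr4 (0.923). Bcs1l and Usp15 were on both lists, and none of these genes belonged to the chaperone lists. Except for Dcaf4, Tfip11 and Mrrf, each was highest in double-transgenic replicate 2 and lowest in Eμ-Myc replicate 3. These r values and counts were not computed without those lymphomas.

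Marker genes of other cell types were set beside the members, since the labels name no sorting of the tumours. Of 56 relations between 8 members and the mean level of 7 marker lists, 0 passed adjustment (6 at an unadjusted p under 0.05). The strongest was that of Hspa1b with 8 stromal and endothelial genes (8 of 8 tested, among them the collagens Col1a1, Col1a2 and Col3a1), with r = 0.840 (rho 0.867, exact permutation p = 0.004, adjusted p = 0.204). It was 0.884 without the 2 arrays farthest from the median and 0.843 within genotypes. The mean of these genes was 7.44 to 9.83 in the double-transgenic and 8.37 to 10.03 in the Eμ-Myc lymphomas. Eμ-Myc replicate 4 and double-transgenic replicate 2 were highest both in this mean and in Hspa1b. The genes of the list did not move alike. Col1a1, Col1a2, Col3a1 and Pdgfrb were highest in Eμ-Myc replicate 4, while Cdh5, Kdr, Vwf and Pecam1 were highest in other lymphomas. Pecam1 was lowest in Eμ-Myc replicate 4, where Hspa1b was highest, and highest in double-transgenic replicate 3, where Hspa1b was lowest. The relation was not tested for the endothelial genes alone. Hspa1b had r = 0.698 with 8 macrophage genes (8 of 8 tested, adjusted p = 0.336, exact permutation), whose mean was 8.47 to 10.26 in the double-transgenic and 9.65 to 10.85 in the Eμ-Myc lymphomas. How far such cells account for the Hspa1b level was not tested.

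Granulocyte genes were high at opposite ends of the abundant group. Their mean (7 of 8 tested) was 10.57 in double-transgenic replicate 2 and 3.71 to 5.56 in the other double-transgenic lymphomas, against 4.84 to 9.48 in the Eμ-Myc lymphomas with the highest in replicate 3. The lymphoma with the highest and that with the lowest Hsph1 thus had the highest granulocyte mean of their genotypes. Single genes differed: among the Eμ-Myc lymphomas Ngp, Camp, Mpo and Prtn3 were highest in replicate 3. S100a8 and S100a9 were highest in replicate 2 and Ltf in replicate 4. Over the 9 arrays the granulocyte mean had r of 0.092 to 0.278 with Hspa8, Dnaja1, Hsph1 and Dnajb1. It had r = 0.683 with Hsp90aa1 (rho 0.669, adjusted p = 0.336, exact permutation). With Hspa1b it had r = 0.615 (rho 0.717, adjusted p = 0.597, exact permutation). The part of granulocytes in the chaperone values was not tested. The T cell list had 5 of 8 genes tested, with mean 4.60 to 6.19 in double-transgenic and 4.14 to 6.47 in Eμ-Myc lymphomas, and Cd3e was below the filter in all 9. The natural killer list had 1 of 5 tested (Klrd1), with Ncr1 at background throughout. In the erythroid list 2 of 8 genes were tested, and Klf1 and Car1 were at background in every lymphoma. The mean of those 2 globin genes was 4.54 to 5.03 in double-transgenic and 4.50 to 4.57 in Eμ-Myc lymphomas, close to the filter and highest in double-transgenic replicate 2. It had r = 0.794 with Dnaja1, 0.762 with Hsph1 and 0.742 with Dnajb1 (rho 0.767, 0.817 and 0.820, adjusted p = 0.204 each, exact permutation), which are 3 of the 6 relations with an unadjusted p under 0.05. Its part in their values was not tested.

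**Figure D5:**
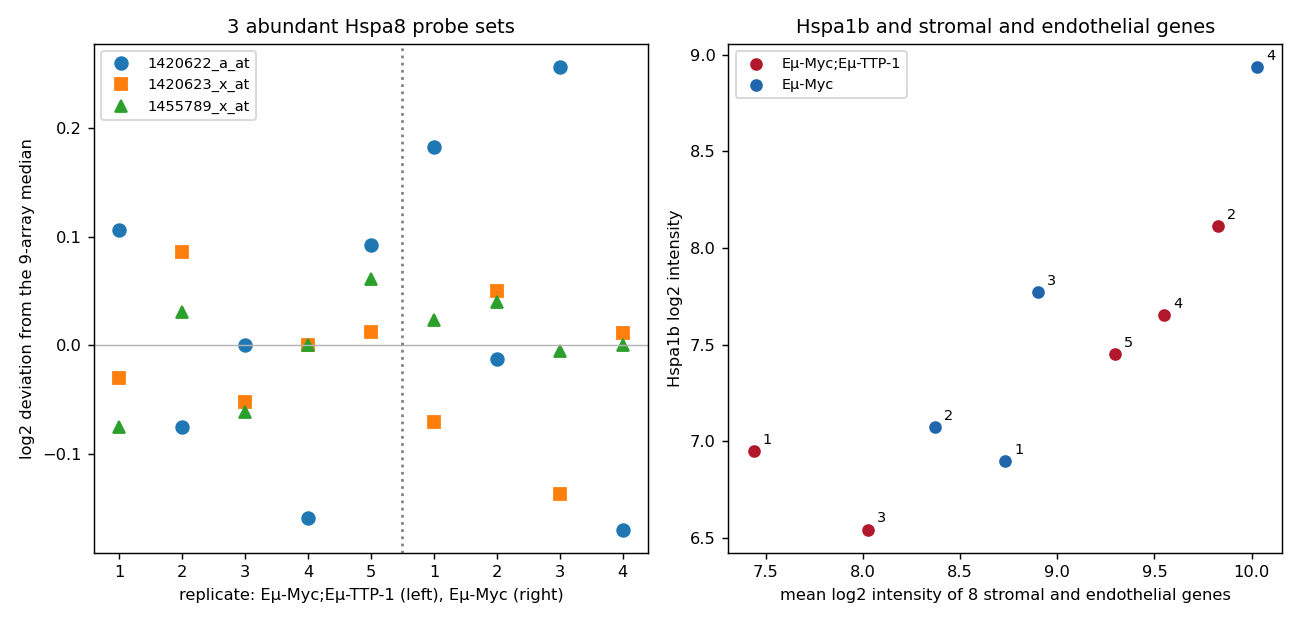
Left, log2 deviation of 3 abundant Hspa8 probe sets from their 9-array medians by lymphoma, where 1420622_a_at and 1420623_x_at lie on opposite sides in Eμ-Myc replicate 3. Right, Hspa1b log2 intensity against the mean of 8 stromal and endothelial genes, 1 point per lymphoma with its replicate number (r = 0.840).

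The wider chaperone system was examined in 10 lists of 109 further genes, of which 91 were tested. None passed the test, 60 had positive and 31 negative differences, and the median was 0.08 beside 0.05 over all genes, where 5991 were positive and 4181 negative. At an unadjusted p under 0.05 there were 3 of the 91. Their median SD within genotype was 0.27, beside 0.35 over all genes. In the list of other HSF1-responsive genes 16 of 19 differences were positive (median 0.11, 0 passed). In it Fkbp4, an Hsp90 co-chaperone of steroid receptors, read 12.65, 12.66, 12.49, 12.73 and 12.44 in the double-transgenic lymphomas, against 12.18 ± 0.10 in the Eμ-Myc lymphomas (SD, n = 4). Fkbp4 thus differed by 0.41 (SE 0.11, limma adjusted p = 0.845), which had the smallest p of the chaperone genes and did not pass. Mrpl18, a mitochondrial ribosomal protein gene, differed by 0.23 (SE 0.11), Cryab by -0.47 (SE 0.39) and Ahsa1, an activator of the Hsp90 ATPase, by -0.11 (SE 0.12).

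Partners of the Hsp70 and Hsp90 cycles showed small differences of either sign. Among other Hsp70 genes 5 of 9 were positive (median 0.14), with 0.27 (SE 0.18) for Hspa14 of the ribosome-associated complex and 0.18 (SE 0.25) for Hyou1 at one end and -0.16 (SE 0.15) for the mitochondrial Hspa9 and -0.49 (SE 0.60) for Hspa2 at the other. Among other Hsp40 genes 10 of 18 were positive (median 0.04), from Dnajc8 at 0.18 (SE 0.12) and Dnajc10 at 0.20 (SE 0.15) to Dnajc7 at -0.28 (SE 0.22) and Dnajc3 at -0.26 (SE 0.26). Hsp90 co-chaperones had 9 of 15 positive (median 0.08), with Chordc1 at 0.26 (SE 0.15), Unc45a at -0.18 (SE 0.18) and the mitochondrial import receptor Tomm70a at -0.37 (SE 0.17). Of the nucleotide exchange and Bag-domain list 6 of 9 were positive (median 0.10). Bag6 differed by 0.45 (SE 0.14, limma adjusted p = 0.845) and Bag4 by 0.27 (SE 0.13), while Bag2 had -0.42 (SE 0.45) and Sil1 of the endoplasmic reticulum -0.18 (SE 0.15). Of these lists 0 genes passed.

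Chaperones of other compartments gave no call either. Endoplasmic reticulum chaperones had 11 of 15 positive (median 0.12), with Creld2 at 0.53 (SE 0.20, limma adjusted p = 0.845) and Manf at 0.33 (SE 0.23) at one end and Dnajc3 and Herpud1 (-0.18, SE 0.30) at the other. Mitochondrial chaperones had 4 of 9 positive (median -0.15), with Hspd1 at 0.11 (SE 0.13) and its partner Hspe1 at 0.09 (SE 0.12), and Clpx at -0.18 (SE 0.15). Subunits of the CCT chaperonin and of prefoldin had 12 of 14 positive (median 0.05), from Pfdn5 at 0.28 (SE 0.14) and Cct7 at 0.11 (SE 0.12) to Cct8 at -0.27 (SE 0.19) and Cct4 at -0.03 (SE 0.10). The list of other genes with an Hspb symbol, together with Cryaa and Cryab, had 3 of 9 tested. All had negative differences (median -0.47), among them Hspb11 at -0.52 (SE 0.25). Of these 4 lists 0 genes passed.

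Of the heat shock factors themselves little could be read. Hsf1 was not analysed here, and the 2 probe sets of Hsf2 read 2.17 to 3.06 throughout, under the filter. Hsbp1, which binds HSF1 and dampens it, was the 1 of 6 genes of this list that was tested, at 12.33 ± 0.15 in double-transgenic (SD, n = 5) and 12.08 ± 0.10 in Eμ-Myc lymphomas (SD, n = 4), differing by 0.25 (SE 0.12, limma adjusted p = 0.855). Immediate-early genes, which respond quickly to growth factors and stress, had 8 of 16 positive differences (median -0.17, 0 passed). Of these, Dusp1 had 0.76 (SE 0.27), Ier2 0.64 (SE 0.57), Junb -0.36 (SE 0.13) and Klf4 -1.06 (SE 0.32), each with a limma adjusted p of at least 0.845.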

How the data were processed

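One array per lymphoma was measured. The authors deposited a single table of intensity values, 1.56 to 123104.74, made with GCRMA per the submitters' processing notes. GCRMA corrects background by probe sequence, normalises quantiles and summarises probe sets, and no version of it was stated. The values were linear, and log2 was taken here without a pseudocount. The platform annotation gave 1 gene for 34945 of 45037 probe sets, several for 932 and none for 9160, and only the first kind was used. RefSeq (GRCm38.p6) held the names of 34741. Scanner files, detection calls and scan dates were not used here.

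All 9 arrays were fitted with limma 3.58.1 in R 4.3.3 (lmFit, eBayes, two-sided, Benjamini-Hochberg over all 10172 genes or all 18464 probe sets, threshold 0.05, no covariates). Tested on simulated data, the fit called 9 of 9972 genes that had not been changed. Correlations used exact permutation in Python 3.11.15, adjusted over 28 pairs of members, 18 pairs of probe sets and 56 marker relations. The number of arrays limits precision. Named genes were the members with all probe sets, up to 2 genes of lowest p at each end of a chaperone list, the 8 non-members most correlated with Dnajb1 and with Hspa8, Zfp36 and Myc. Marker genes were named after their values were seen. The members and lists were chosen with earlier results of these data known.

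Alternatives were no filter, a filter of 6, the mean of probe sets, leaving out _x_at probe sets, quantile normalisation, median centring, a pseudocount of 16, an intensity trend with robust prior, array weights, the replicate number as a block, chromosome centring and each array left out. Deviations of same-numbered samples correlated at -0.089, 0.092, -0.0033 and 0.196, so the numbers were not taken to pair lymphomas.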

Additional observations from a re-analysis of the deposited data

Results flagged for a closer look

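In 3 of 40 groups of probe set values 1 lymphoma stood apart from the rest of its genotype by Dixon's criterion, where chance gives about 1 in 20 groups, or 2. The second Dnajb1 probe set, 1416756_at, was at 9.73 in Eμ-Myc replicate 2, the other Eμ-Myc lymphomas lying at 9.46 to 9.47. The Hsp90aa1 probe set 1437497_a_at was at 14.99 in the same lymphoma, with 14.52 to 14.54 elsewhere in the genotype. The least abundant Hspa8 probe set, 1431182_at, was at 10.6 in Eμ-Myc replicate 3, with 11.52 to 11.62 elsewhere in that genotype.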

How the results depend on the processing

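Over 159 refits of the 8 members under 20 alternatives 0 passed, with a lowest limma adjusted p of 0.594, and the sign turned in 4: Hspa8 (0.040) had -0.12 with the mean of probe sets, -0.071 without _x_at probe sets and -0.036 with median centring, and Hspa1b, which ranged from -0.59 to 0.093 with 1 lymphoma left out, had 0.093 without Eμ-Myc replicate 4. Leaving out 1 lymphoma gave 0 to 8 genes called (8 without Eμ-Myc replicate 3, of which 6 were higher, and 1 without Eμ-Myc replicate 4) and 0 to 4 probe sets (4 without Eμ-Myc replicate 3). The other 11 alternatives called 0 genes. The correlation between members gave 5 pairs, against 2 on deviations from genotype means and 0 without the 2 arrays farthest from the median of each pair's first gene. There were 3 without _x_at probe sets (chosen after seeing the data, r of Hspa8 then -0.514 with Hsph1 and -0.684 with Dnajb1) and 0 to 5 with 1 lymphoma left out. Quantile normalisation gave 5. Chromosome centring gave 6, with Hspa8 and Hsp90aa1 added (r = 0.892, adjusted p = 0.023, exact permutation). The r of that pair was 0.426 under quantile normalisation and -0.358 without _x_at probe sets. The causes were not tested. With the replicate number as a block 0 genes passed (533 at an unadjusted p under 0.05), Bag3 had -1.91 and Hsph1 0.58, and no call changed. Values near the filter, as for Hspb1, are limited by signal over background, and for Bag3 the spread between lymphomas leaves an interval from 0.057 to 1.43 in ratio.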
